A study of Mus musculus with 12 samples.

Results

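The 10 genes described here encode parts of the elastic fibre and the enzymes that crosslink it: Eln, Fbn1, Mfap4, Emilin1, Fbln1, Fbln5, Efemp2, Lox, Loxl1 and Loxl2. They were taken by gene symbol from a table of 35275 mouse genes, each symbol matched 1 gene ID, and all 10 held enough reads to be tested. Whole lung was profiled in 12 male wild-type C57Bl/6J mice of an ageing colony, with no treatment named and 3 mice at each of 3, 6, 12 and 24 months of age. Poly(A) RNA of each mouse gave 1 library, so the p-values below rest on the spread between mice, with 3 per age. Unless libraries are named as left out, edgeR shared 1 estimate of that spread over all 12 libraries. The 24-month mice therefore also enter the p-values of the younger ages. The comparisons ask how the lung transcriptome differs with age. In whole lung, fewer cells of a type and less RNA per cell cannot be told apart.

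An elastic fibre is a core of elastin laid down on a scaffold of fibrillin microfibrils, and it lets the alveolar wall stretch and recoil with each breath. Cells secrete the elastin precursor, fibulins carry it and the crosslinking enzyme to the microfibril, and copper-dependent lysyl oxidases join elastin chains into an insoluble polymer. Most lung elastin is made while alveoli form, the polymer turns over very slowly in the adult, and its breakdown is a hallmark of emphysema.

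The coding sequences show what makes these proteins distinct and how far their base composition differs. Elastin is built of glycine-rich repeats and fibrillin-1 of cysteine-rich domains held by disulphide bonds, so the 150 coding bases richest in glycine codons (GGN) or in cysteine codons (TGC, TGT) are shown 5′ to 3′ with those codons in capitals. In Eln, coding bases 2176 to 2325 hold 30 such codons of 50, against 312 of 861 in the whole coding sequence (36.2%). In Fbn1, coding bases 355 to 504 hold 11 of 50, against 361 of 2874 (12.6%). A stretch of 57 bases that holds the copper-binding codons and flanking bases on both sides is shown for 2 lysyl oxidase-like genes. It spans coding bases 1414 to 1470 in Loxl1 and 1852 to 1908 in Loxl2. Capitals in Loxl2 mark the 20 bases of the whole stretch that differ from Loxl1. The GC content of the coding sequence is 62.6% in Eln, 51.7% in Fbn1, 64.6% in Loxl1 and 56.3% in Loxl2. All 4 stretches are from GENCODE M21 transcripts of the GRCm38 assembly.
Eln: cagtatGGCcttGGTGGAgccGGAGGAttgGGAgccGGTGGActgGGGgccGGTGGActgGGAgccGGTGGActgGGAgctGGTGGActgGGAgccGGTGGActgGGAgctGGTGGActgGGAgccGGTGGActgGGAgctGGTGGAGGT
Fbn1: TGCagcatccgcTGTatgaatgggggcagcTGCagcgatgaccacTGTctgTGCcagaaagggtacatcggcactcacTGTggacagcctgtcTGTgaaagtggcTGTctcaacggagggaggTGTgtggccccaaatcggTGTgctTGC
Loxl1: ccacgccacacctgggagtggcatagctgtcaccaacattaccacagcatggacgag
Loxl2: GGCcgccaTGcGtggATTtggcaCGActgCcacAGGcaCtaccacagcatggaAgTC

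Start-site windows of 300 bases (250 before to 50 after the start) were found in RefSeq for 5 of the 10 genes on GRCm38.p6. Shown 5′ to 3′ are Fbln1 (chr15:85205699-85205998, + strand), Emilin1 (chr5:30913536-30913835, + strand) and Efemp2 (chr19:5473696-5473995, + strand), whose levels were higher at 24 months, and Fbn1 (chr2:125506389-125506688, − strand), whose level was lower. For Fbln1 and Efemp2 the first of 2 and of 3 listed starts is shown, and the windows of the others hold 2 GC boxes for Fbln1 and 5 and 7 for Efemp2. Capitals mark the GC box GGGCGG and the SMAD box CAGAC on either strand, and no match overlaps another motif. The Efemp2 window holds 2 GC boxes and 2 SMAD boxes, the Emilin1 window 2 SMAD boxes, the Fbln1 window 2 SMAD boxes and the Fbn1 window 1 GC box. On either strand, GGGCGG occurs in 35.7% and CAGAC in 49.6% of 32851 RefSeq windows of this length. Of the other motifs searched on both strands, TATAAA (13.6% of windows) and TGACTCA (5.2%) are in none of the 4 windows, CACGTG (7.15%) is in that of Fbln1 and CCAAT (37.4%) in that of Emilin1.
Fbln1: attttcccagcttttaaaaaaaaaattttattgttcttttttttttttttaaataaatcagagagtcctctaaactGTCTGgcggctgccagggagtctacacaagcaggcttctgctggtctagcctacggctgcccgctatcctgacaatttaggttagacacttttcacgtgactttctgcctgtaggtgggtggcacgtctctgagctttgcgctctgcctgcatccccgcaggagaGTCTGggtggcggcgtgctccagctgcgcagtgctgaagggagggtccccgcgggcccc
Emilin1: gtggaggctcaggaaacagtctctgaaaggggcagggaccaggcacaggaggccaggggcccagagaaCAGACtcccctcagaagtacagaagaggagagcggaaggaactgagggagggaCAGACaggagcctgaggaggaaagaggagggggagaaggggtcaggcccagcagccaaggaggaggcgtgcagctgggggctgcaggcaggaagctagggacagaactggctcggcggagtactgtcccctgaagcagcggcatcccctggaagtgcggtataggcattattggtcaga
Efemp2: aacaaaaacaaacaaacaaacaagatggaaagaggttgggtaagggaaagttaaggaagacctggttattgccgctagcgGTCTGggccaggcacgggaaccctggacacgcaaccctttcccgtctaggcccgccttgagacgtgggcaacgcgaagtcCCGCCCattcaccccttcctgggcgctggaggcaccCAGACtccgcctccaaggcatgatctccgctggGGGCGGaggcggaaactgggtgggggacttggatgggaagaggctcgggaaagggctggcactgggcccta
Fbn1: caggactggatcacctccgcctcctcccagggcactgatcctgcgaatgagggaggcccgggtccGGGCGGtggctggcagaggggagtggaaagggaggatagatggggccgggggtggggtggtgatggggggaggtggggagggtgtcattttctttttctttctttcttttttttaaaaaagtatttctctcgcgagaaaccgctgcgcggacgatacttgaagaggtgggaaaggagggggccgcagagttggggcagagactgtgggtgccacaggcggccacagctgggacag

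Libraries held 14.7 to 21.2 M gene reads, and 16042 genes were tested. The libraries of the 24-month mice were unlike the 9 younger ones. They separated on the first principal component of log2 CPM, with 84.0% of the variance, and their reads came from genes richer in GC (54.3, 54.5 and 55.9% of bases, weighted by reads, against 50.5 to 51.8%). The trend of fold changes on GC content and gene length was therefore also removed from each library before the fit, which is called the correction below. Levels are CPM, reads scaled to the library total after TMM normalisation. Fold changes are log2 ± SE from edgeR's quasi-likelihood test, and a gene is called when its adjusted p over all tested genes is under 0.05. Where 1 fit is given without a name, it has no correction. The CPM of most genes separated the 24-month mice. Of all tested genes 84.4% did not overlap between 3 and 24 months and 80% between 12 and 24 months. Between 6 and 12 months 40.5% did not overlap.

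Between 3 and 24 months, 7 of the 10 genes rose (Eln, Mfap4, Emilin1, Fbln1, Fbln5, Efemp2 and Loxl1) and 3 fell (Fbn1, Lox and Loxl2). Over all tested genes 38.2% were called higher and 44.6% lower, 82.8% in all. The median log2 fold change was 1.41 for the 10 genes and -0.29 for all genes. With the correction 3 rose (Fbln1, Fbln5 and Efemp2) and 3 fell (Fbn1, Lox and Loxl2), where 30.1% of all genes were called higher and 26.3% lower (56.4% in all). Their median was then 0.01, beside 0.02 for all genes. The same 7 and 3 genes were called with RLE size factors, and all 10 kept their direction when libraries were scaled by their totals alone, although Fbln5 (0.14, adjusted p = 0.67) and Mfap4 (0.28, adjusted p = 0.30) were then not called. Scaling by totals moved the median of all genes from -0.29 to -1.0, and RLE moved it to -0.17.

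**Figure D1:**
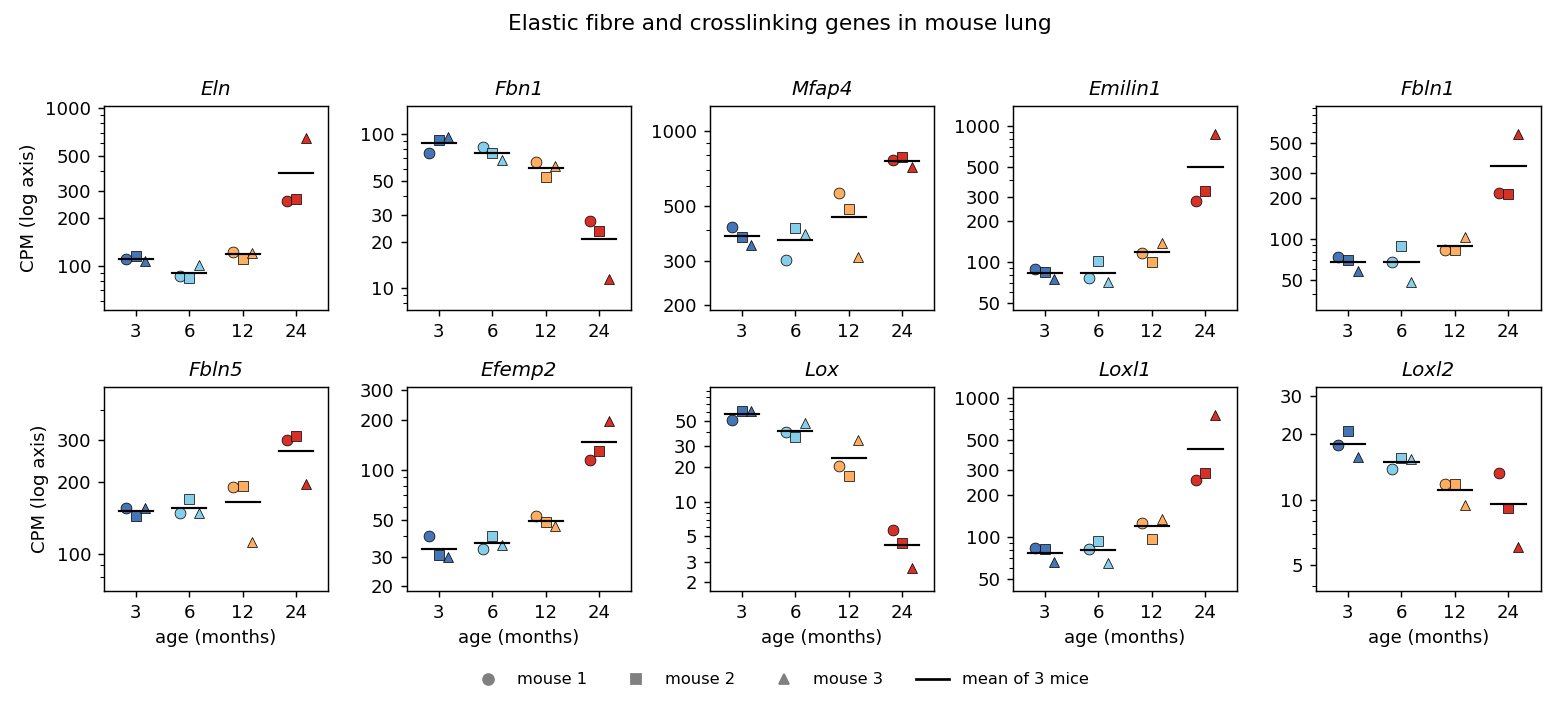
CPM of the 10 genes (log axis) in each of the 12 libraries by age in months, with a symbol for each mouse number and a line at the mean of 3 mice. The 24-month mice lie above all 3-month mice in 7 panels and below them in those of Fbn1, Lox and Loxl2. Of all tested genes 84.4% likewise did not overlap between these ages. Mouse 3 of the 24-month group is the highest of its age for Eln, Emilin1, Fbln1, Efemp2 and Loxl1.

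Eln (ENSMUSG00000029675, chr5:134703781-134747241, − strand), which encodes the elastin precursor, was similar at 3 and 12 months and higher at 24 months without the correction. It stood at 110.1, 115 and 107 CPM in the 3-month mice and at 86.0, 83.7 and 101 CPM in the 6-month mice. In the 12-month mice it stood at 123, 109.9 and 121 CPM, and in the 24-month mice at 259, 264 and 645 CPM. All 24-month mice lay above all younger mice, and the 6-month mice all lay below the 3-month mice. The 24-month difference from 3 months was 1.81 ± 0.30 (adjusted p = 3.6e-05), and 1.24 (adjusted p = 1.0e-06) without 24-month mouse 3. With the correction it was -0.10 ± 0.15 (adjusted p = 0.60), so the direction turned and the call ended. Genes within 1 percentage point of the GC content of Eln (57.2%) had a median fold change of 1.88. Corrected levels were 154, 171 and 165 CPM at 3 months and 142, 129 and 186 CPM at 24 months, which overlap. The table's length for Eln is 2583 bases, equal to its coding length, and 1270 exon bases of GENCODE lie outside the table's span, so its level per length rests on the coding part.

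Fbn1 (ENSMUSG00000027204, chr2:125300594-125507993, − strand, 65 exons) encodes fibrillin-1, the main protein of adult microfibrils, which also stores latent TGF-beta. It stood at 75.3, 92.6 and 95.7 CPM at 3 months and at 83.4, 76.1 and 67.9 CPM at 6 months. It then stood at 66.4, 53.0 and 62.3 CPM at 12 months and at 27.4, 23.3 and 11.5 CPM at 24 months. The 12-month mice all lay below the 3- and 6-month mice, and the 24-month mice below every other mouse. Fbn1 fell by 24 months (-2.08 ± 0.26, adjusted p = 3.1e-06) and likewise with the correction (-1.52 ± 0.24, adjusted p = 8.8e-05). Genes of its GC content (52.3%) had a median of 0.54, of the opposite sign. Its length of 11971 bases is not matched there. The log2 trend on GC content and length that the correction removed from Fbn1 had a mean of 0.33 at 3 months and -0.24 at 24 months. That trend has the same sign as the fall of Fbn1. Of its exon bases, 2442 also lie in Gm9913, a gene model on the opposite strand, and none of the sources used here says whether counting used the strand.

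Mfap4 (ENSMUSG00000042436, chr11:61485431-61488900, + strand) encodes a microfibril-associated glycoprotein that binds elastin and fibrillin. It stood at 409.7, 376 and 347 CPM at 3 months, 304, 408 and 384 CPM at 6 months, 563, 484 and 309.9 CPM at 12 months and 767, 790.3 and 719 CPM at 24 months. The 24-month mice lay close together and above all others, while 12-month mouse 3 lay below every 3-month mouse. The position of 24-month mouse 3 rests on its TMM factor of 0.521, beside 0.826 and 0.767 in the other 24-month libraries. By library total and gene length without TMM (FPKM), that mouse had 211, below every 3-month mouse (226 to 268). The other 24-month mice had 357 and 342. Mfap4 rose by 24 months (1.01 ± 0.23, adjusted p = 0.00068), and with the correction it had -0.27 ± 0.18 (adjusted p = 0.21), where its direction turned. It shares 89 exon bases with Mapk7 on the other strand.

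Emilin1 (ENSMUSG00000029163, chr5:30913402-30921278, + strand) encodes a glycoprotein at the border of elastin and microfibril that holds back the processing of the TGF-beta precursor. It stood at 88.1, 84.9 and 74.5 CPM at 3 months, 76.6, 102 and 70.7 CPM at 6 months, 116, 99.8 and 138 CPM at 12 months and 278, 329.9 and 875 CPM at 24 months. The 12- and 24-month mice all lay above the 3-month mice, and the range at 24 months was wide. Its rise by 24 months was the largest of the 10 without the correction (2.58 ± 0.36, adjusted p = 6.9e-06), and was 1.89 (adjusted p = 1.8e-07) without 24-month mouse 3. With the correction it was 0.23 ± 0.14 (adjusted p = 0.17).

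Of the 3 fibulin genes, Efemp2 (ENSMUSG00000024909, chr19:5473973-5481853, + strand) encodes fibulin-4, which binds lysyl oxidase and elastin and is needed for elastic fibres to form. It stood at 40.0, 30.5 and 29.8 CPM at 3 months, 33.6, 40.0 and 35.1 CPM at 6 months, 52.6, 48.5 and 46.0 CPM at 12 months and 114, 129 and 196 CPM at 24 months. The 12-month mice lay above all 3- and 6-month mice, and the 24-month mice above those. Efemp2 rose by 24 months without the correction (2.13 ± 0.22, adjusted p = 5.7e-07) and with it (0.54 ± 0.11, adjusted p = 0.00077).

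Fbln5 (ENSMUSG00000021186, chr12:101746565-101819055, − strand) encodes fibulin-5, which tethers elastin to microfibrils and to integrins. It stood at 156, 144 and 156 CPM at 3 months, 148, 171 and 149 CPM at 6 months, 191, 193 and 112 CPM at 12 months and 298, 311 and 196 CPM at 24 months. The 24-month mice lay above all younger mice, and the 12-month mice lay on both sides of the 3-month mice. Fbln5 rose by 24 months (0.82 ± 0.24, adjusted p = 0.0047), a call that was lost without 3-month mouse 1 (0.63, adjusted p = 0.056) or 3-month mouse 3 (0.61, adjusted p = 0.064). With the correction its rise was 2.85 ± 0.21 (adjusted p = 1.5e-07), the largest of the 10, and between 2.77 and 2.94 with each mouse left out. Genes of its GC content (47.5%) had a median of -1.54, of the opposite sign. Corrected levels were 112, 86.4 and 91.5 CPM at 3 months and 635, 756 and 696 CPM at 24 months.

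Fbln1 (ENSMUSG00000006369, chr15:85205949-85286535, + strand) encodes fibulin-1, found in elastic fibres and basement membranes. It stood at 74.0, 70.4 and 58.0 CPM at 3 months, 67.9, 88.9 and 48.5 CPM at 6 months, 82.5, 82.9 and 103 CPM at 12 months and 217, 214 and 581 CPM at 24 months. The 24-month mice lay above all others, and the 6-month mice spanned the whole 3-month range. Fbln1 rose by 24 months (2.32 ± 0.35, adjusted p = 1.6e-05), and by 1.68 (adjusted p = 2.1e-06) without 24-month mouse 3. With the correction it rose by 0.63 ± 0.24 (adjusted p = 0.041), a call lost without 24-month mouse 3 (0.31, adjusted p = 0.25), without 3-month mouse 1, 2 or 3 (adjusted p = 0.051, 0.086 and 0.135), without 6-month mouse 1 (adjusted p = 0.052), and with mouse number as a block (0.60, adjusted p = 0.067).

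Lox (ENSMUSG00000024529, chromosome 18) encodes lysyl oxidase, the enzyme that starts the crosslinks of both elastin and collagen. It stood at 50.5, 61.1 and 60.3 CPM at 3 months and at 39.8, 35.8 and 47.7 CPM at 6 months. It stood at 20.4, 16.5 and 34.1 CPM at 12 months and at 5.68, 4.36 and 2.69 CPM at 24 months, the last from 69, 60 and 23 reads. No mouse of an age overlapped with any mouse of another age, and the levels were lower at each later age. The fall by 24 months was the largest of the 10 without the correction (-3.73 ± 0.31, adjusted p = 8.7e-08) and was -0.96 ± 0.15 (adjusted p = 7.7e-05) with it. Lox had the lowest GC content of the 10 (43.3%), and genes of like content had a median of -2.67. Corrected levels were 29.4, 32.6 and 31.4 CPM at 3 months, 22.6, 22.6 and 26.5 CPM at 6 months, 18.1, 16.0 and 20.3 CPM at 12 months and 17.8, 14.5 and 15.6 CPM at 24 months. After the correction the 3-month mice lay above the 6-month mice and those above the 12-month mice, whereas the 12- and 24-month mice overlapped.

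Loxl1 (ENSMUSG00000032334, chr9:58287723-58313212, − strand) encodes the lysyl oxidase-like enzyme that is bound by fibulin-5 and keeps up elastic fibres in the adult. It stood at 83.6, 81.1 and 65.5 CPM at 3 months, 82.0, 92.6 and 64.9 CPM at 6 months, 126, 95.8 and 133 CPM at 12 months and 258, 288 and 749 CPM at 24 months. The 12-month mice lay above all 3- and 6-month mice, and the 24-month mice above those. Loxl1 rose by 24 months (2.49 ± 0.35, adjusted p = 7.2e-06), by 1.84 (adjusted p = 2.6e-07) without 24-month mouse 3, and had 0.11 ± 0.13 (adjusted p = 0.50) with the correction. Its GC content of 61.0% was the highest of the 10.

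Loxl2 (ENSMUSG00000034205, chr14:69609068-69695834, + strand) encodes a lysyl oxidase-like enzyme known mainly for crosslinking collagen IV of basement membranes. It stood at 17.8, 20.7 and 15.7 CPM at 3 months, 13.8, 15.6 and 15.4 CPM at 6 months, 11.9, 11.8 and 9.51 CPM at 12 months and 13.3, 9.16 and 6.09 CPM at 24 months. The 3-month mice lay above all later mice, and the 12- and 24-month mice overlapped. Loxl2 fell by 24 months without the correction (-0.91 ± 0.25, adjusted p = 0.0029) and with it (-1.43 ± 0.22, adjusted p = 9.7e-05), while genes of its GC content (53.0%) had a median of 0.81. Its exons share 308 bases with other annotated genes, among them models on the opposite strand.

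**Figure D2:**
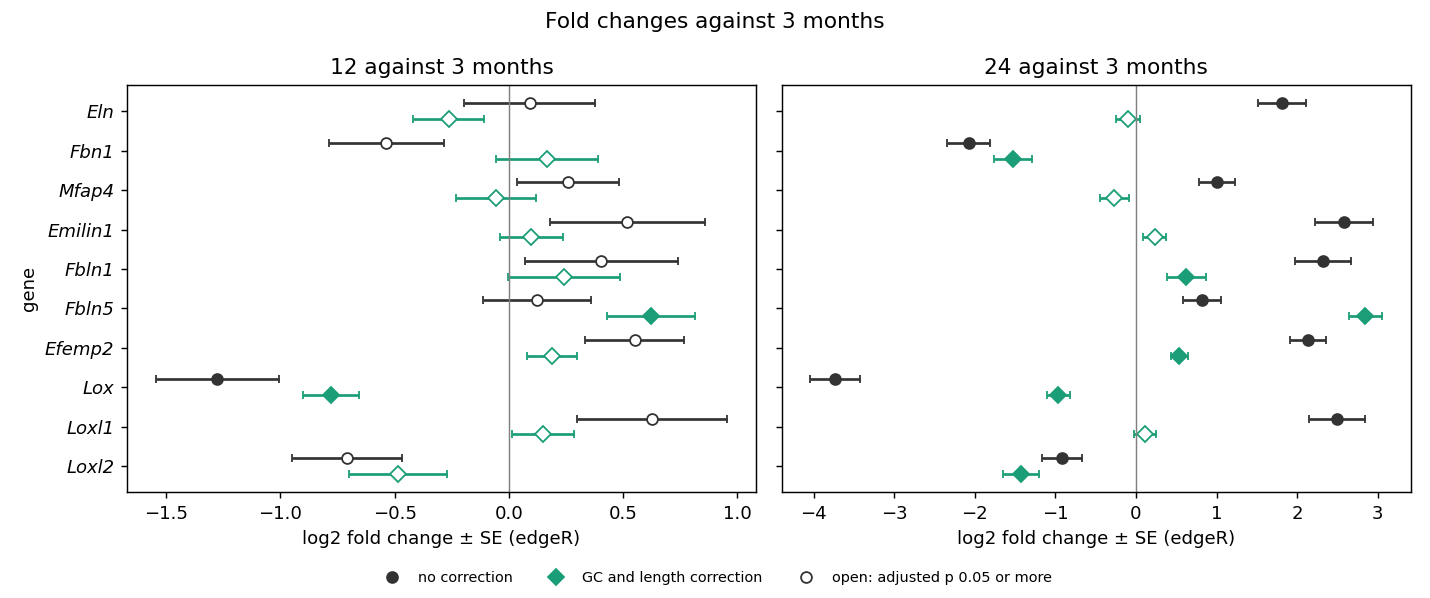
Log2 fold changes ± SE of the 10 genes at 12 against 3 months (left) and 24 against 3 months (right), from edgeR without (circles) and with (diamonds) the correction for GC content and length, with open symbols where the adjusted p is 0.05 or more. At 24 months Fbn1, Lox and Loxl2 lie left of 0 and Fbln1, Fbln5 and Efemp2 right of 0 with filled symbols in both fits.

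Within the 24-month group, mouse 3 was the highest or the lowest for all 10 genes. The share of all tested genes for which that held was not counted. Its library also lay farthest out on the first principal component (232, against 136 and 149 for 24-month mice 1 and 2). Mouse 3 was the highest of its age for Eln (645 CPM), Emilin1, Fbln1, Efemp2 and Loxl1, whose GC content was 55.8 to 61.0%. It was the lowest of its age for Fbn1 (11.5 CPM), Mfap4, Fbln5, Lox and Loxl2, whose GC content was 43.3 to 55.0%. That library also had the highest GC content by reads (55.9%) and held 1301 summed CPM of 9 skin and oesophagus epithelium markers, against 4.44 to 18.5 CPM in the other 11. The part of that epithelium in the levels of mouse 3 was not tested.

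**Figure D3:**
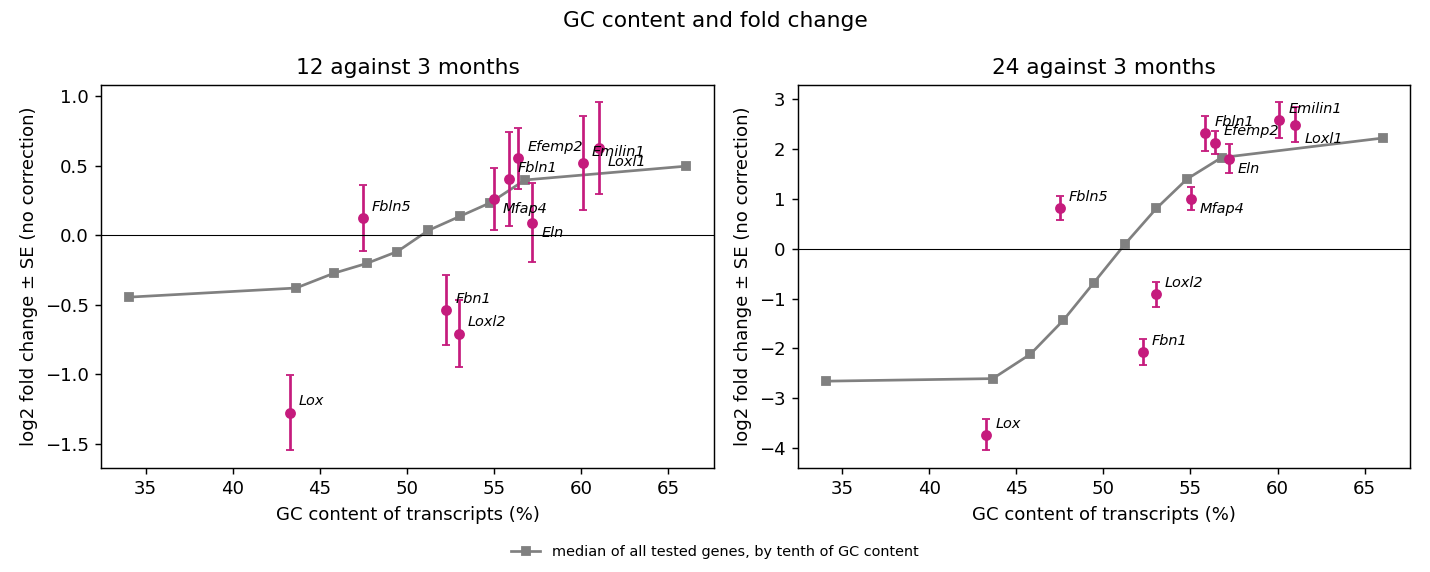
Log2 fold change ± SE without the correction (vertical) against GC content of the gene's transcripts in percent (horizontal) for the 10 genes, at 12 against 3 months (left) and 24 against 3 months (right), with the medians of all tested genes in 10 bins of GC content as a grey line. At 24 months the grey line runs from -2.66 in the lowest bin to 2.22 in the highest, Eln and Loxl1 lie near it, Fbln5 lies above it, and Fbn1 and Loxl2 lie below it.

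The genes fall into 3 kinds by how their 24-month fold compared with that of genes of like GC content. Eln, Emilin1, Loxl1, Fbln1, Efemp2 and Mfap4 had folds of 1.01 to 2.58, where the medians of genes within 1 percentage point were 1.44 to 2.33, and all had the same sign as those medians. Lox had -3.73 and a median of -2.67 beside it. Fbln5, Fbn1 and Loxl2 had the opposite sign to their medians. These medians match genes on GC content alone, not on length, and are a description, with no test. For Fbn1 the trend on GC content and length together went down, as Fbn1 did.

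Per base of gene length the 10 genes spanned a wide range of levels. On the FPKM scale of the deposited table, which divides reads by gene length and library total without TMM scaling, Mfap4 was the most abundant at 3 months with 249.6 ± 21.6 (SD, n = 3). Eln followed with 50.2 ± 2.92 FPKM and Fbln5 with 30.5 ± 0.667. Loxl1 (26.9 ± 3.76), Emilin1 (25.1 ± 2.45), Efemp2 (21.9 ± 3.57) and Fbln1 (21.6 ± 2.91) overlapped from mouse to mouse. Below them, without overlap, came Lox with 15.0 ± 1.75, Fbn1 with 8.59 ± 1.14 and Loxl2 with 3.99 ± 0.643 FPKM.

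At 24 months Mfap4 and Eln still had the highest means, with 304 ± 80.2 and 97.0 ± 28.7 FPKM, and Loxl1 (82.3 ± 29.9) and Emilin1 (81.2 ± 32.3) followed. Fbln5, next after Eln at 3 months, had 33.5 ± 13.9 FPKM, below the means of Fbln1 (58.8 ± 20.8) and Efemp2 (55.4 ± 2.23). Loxl2 had 1.33 ± 0.737, Fbn1 1.29 ± 0.716 and Lox 0.704 ± 0.370 FPKM, whose ranges overlapped. The summed FPKM of the 10 genes was 415 to 477 at 3 months and 697 to 736 at 24 months. Mfap4 held 54.4 to 56.1% of that sum at 3 months, and 50.1, 49.1 and 28.7% in the 24-month mice. Fbn1, the scaffold protein, held 1.53 to 2.22% at 3 months and 0.0679 to 0.265% at 24 months. On this scale Fbln5 and Mfap4 did not separate the ages. Fbln5 had 29.7 to 31.0 FPKM at 3 months and 17.5 to 42.2 FPKM at 24 months. Mfap4 had 226 to 268 FPKM at 3 months and 211 to 357 FPKM at 24 months.

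**Figure D4:**
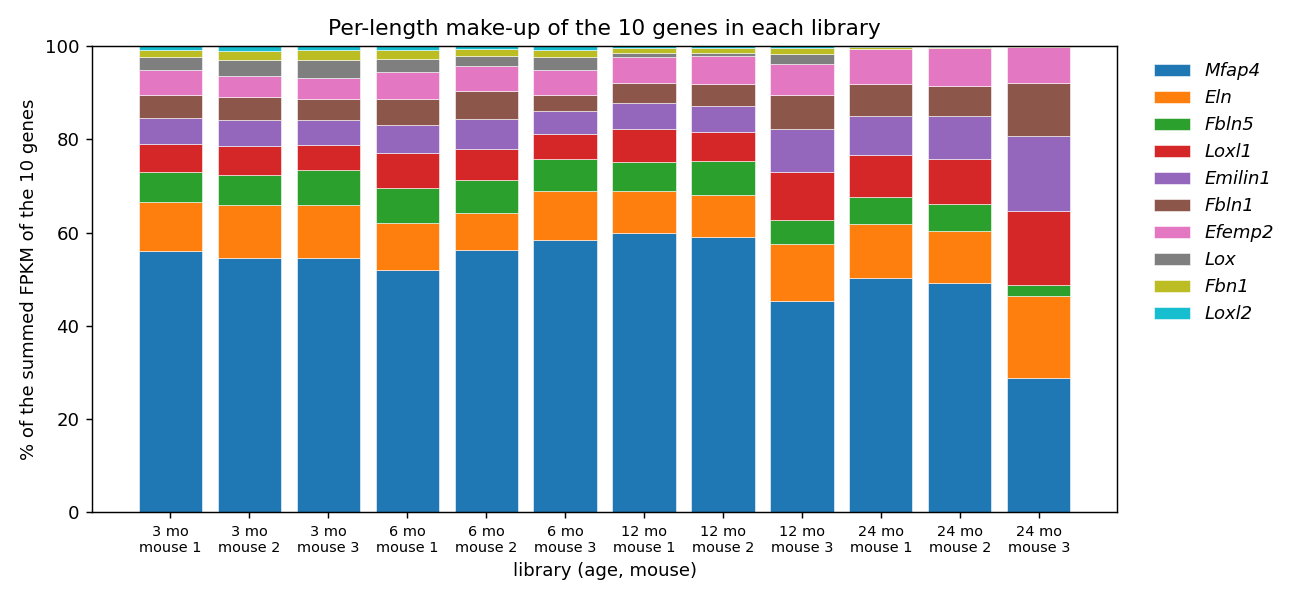
Share of the summed FPKM of the 10 genes (vertical, percent, from the deposited FPKM) taken by each gene in each of the 12 libraries (horizontal). Mfap4 takes 45.4 to 59.9% in the 9 younger libraries and 28.7% in 24-month mouse 3, where Eln takes 17.7%.

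Between 3 and 12 months only Lox was called among the 10 (1 lower and 0 higher), where 8.87% of all genes were called lower and 6.3% higher. Lox fell by 1.28 on the log2 scale (-1.28 ± 0.27, adjusted p = 0.0096), and by -0.78 ± 0.12 (adjusted p = 0.0018) with the correction. Without the correction that call was lost without 3-month mouse 2 (-1.24, adjusted p = 0.058). With it the adjusted p was at most 0.015 with any mouse left out. Genes of the GC content of Lox had a median of -0.40 at 12 months.

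Several other genes stood apart at 12 months without passing the test over all genes. The 12-month mice did not overlap with the 3-month mice for 7 of the 10 genes (Fbn1, Fbln1, Efemp2, Lox, Loxl1, Loxl2 and Emilin1). Of all tested genes 44.4% did not overlap between these ages either, and 15.2% were called in either direction. Loxl2 had -0.71 ± 0.24 (adjusted p = 0.058), Efemp2 0.55 ± 0.22 (adjusted p = 0.089), Fbn1 -0.54 ± 0.25 (adjusted p = 0.14) and Loxl1 0.63 ± 0.33 (adjusted p = 0.18). Eln had 0.09 ± 0.29 (adjusted p = 0.84), and its direction turned with the correction (-0.26 ± 0.15, adjusted p = 0.24). The 24-month libraries enter the shared estimate of spread: without 24-month mouse 3, or without all 3 of them, Efemp2, Loxl1 and Emilin1 were called higher and Fbn1, Lox and Loxl2 lower. Calls over all genes rose with them, from 15.2% to 36.3% and 36.1%. With the correction Fbln5 was higher at 12 months (0.62 ± 0.19, adjusted p = 0.037), and Lox was the only one of the 10 called lower, where 10.4% of all genes were called higher and 8.47% lower (18.8% in all). The call on Fbln5 ended when mouse 2 or 3 of the 3-month group, mouse 1 or 3 of the 6-month group or mouse 1 or 2 of the 12-month group was left out, with a highest adjusted p of 0.15. Corrected Fbn1 had 0.17 ± 0.22 (adjusted p = 0.63), with the direction turned.

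Between 3 and 6 months none of the 10 genes was called by edgeR, and neither was any of the 16042 tested genes (0%). At an unadjusted p under 0.05 edgeR listed 0 of the 10 genes and 267 of all genes, and DESeq2 called 6 genes and limma voom 0, none of them among the 10. With the correction edgeR called 0 of the 10 genes and 0.00627% of all genes, while 2 of the 10 and 491 of all genes had an unadjusted p under 0.05. Fold changes without it ran from -0.48 (Lox) to 0.11 (Efemp2). Lox, Eln and Loxl2 at 6 months lay below all 3-month mice, where 10.9% of all genes did not overlap (5.28% lower). Lox had -0.38 ± 0.12 with the correction (adjusted p = 1.0). Among 3, 6 and 12 months jointly, Lox alone differed (adjusted p = 0.029, or 0.0052 after the correction), where 6.43% of all genes were called, or 11.2% after the correction. Without the correction that call rested on 6 libraries, since leaving out mouse 2 or 3 of the 3-month group, mouse 1 or 3 of the 6-month group or mouse 1 or 2 of the 12-month group ended it, as did a block on mouse number. Without 24-month mouse 3, 6 of the 10 genes and 27.2% of all genes were called.

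Between 6 and 12 months 0 of the 10 genes was called by edgeR, where 2.03% of all genes were (0.48% higher and 1.55% lower), and 1 of the 10 and 3851 of all genes had an unadjusted p under 0.05. DESeq2 and limma voom also called 0 of the 10, as did edgeR with the correction, where 6.02% of all genes were called (2.97% higher and 3.05% lower). Lox had -0.80 ± 0.27 (adjusted p = 0.11), and was called without 12-month mouse 3 (-1.15, adjusted p = 0.028) or 24-month mouse 3 (-0.80, adjusted p = 0.022), where 7.18% and 21% of all genes were called.

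Between 12 and 24 months the same 7 genes were higher as against 3 months, and Fbn1 and Lox were lower, where 37.3% of all genes were called higher and 42.5% lower (79.7% in all). Emilin1 rose by 2.06 ± 0.35 (adjusted p = 7.0e-05) and Eln by 1.72 ± 0.29 (adjusted p = 7.6e-05). Loxl2 had -0.21 ± 0.25 (adjusted p = 0.45). The comparison shares its 24-month mice with that against 3 months. The call on Fbln5 (0.70 ± 0.24, adjusted p = 0.013) was kept only without 3-month mouse 2, 12-month mouse 2, or 24-month mouse 1 or 3. That on Mfap4 (0.75 ± 0.22, adjusted p = 0.0065) was lost without 3-month mouse 3 or 6-month mouse 2 or 3. With the correction Fbln5 (2.22 ± 0.20, adjusted p = 2.2e-06) and Efemp2 (0.35 ± 0.11, adjusted p = 0.018) were higher and Fbn1 (-1.69 ± 0.24, adjusted p = 6.6e-05) and Loxl2 (-0.94 ± 0.23, adjusted p = 0.0039) lower, where 21.4% of all genes were called higher and 21% lower (42.4% in all). The call on Efemp2 was lost without 12-month mouse 2 (0.29, adjusted p = 0.086). Lox then had -0.18 ± 0.15 (adjusted p = 0.35).

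The authors' deposited table gives the same direction as the edgeR fit for all 10 genes at 24 against 3 months, with Lox at -3.63 (adjusted p = 2.76e-38). At 12 against 3 months the authors' deposited table has 6 of the 10 genes under an adjusted p of 0.05. The share of all genes there was not counted, so the 6 cannot be read as a result about these 10 genes. There, in the authors' deposited table, Efemp2 has 0.51, Loxl1 0.57 and Emilin1 0.47, and Fbn1 has -0.52, Lox -1.16 and Loxl2 -0.67.

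Some of the 10 genes ran closely parallel over the 12 libraries. Likeness was measured as the root mean square difference of centred log2 CPM, in which 0 means the same profile. Loxl1 and Emilin1 were the closest pair (0.102), followed by Fbln1 with Loxl1 (0.145) and Fbln1 with Emilin1 (0.149). Fbln5 ran closest to Mfap4 (0.198), and both were low in 12-month mouse 3. Lox and Emilin1 were the farthest apart (2.51). Among 10149 genes with a mean of at least 10 CPM, the genes nearest to Eln were Enthd2 (0.0939), Arrdc1 (0.118) and Actr5 (0.131), with a GC content of 57.2 to 58.7% beside 57.2% for Eln. Those nearest to Lox were Pik3r1 (0.116), Fbxo11 (0.126) and Fam135a (0.142), with 40.4 to 45.6% beside 43.3% for Lox.

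Other structural genes of microfibrils and elastic fibres moved in both directions at 24 months. Of 20 tested genes 13 rose and 6 fell, with a median of 1.00, and with the correction 6 rose and 6 fell, with a median of 0.01. For this and the lists below, 38.2% of all genes were called higher and 44.6% lower at 24 months (30.1 and 26.3% with the correction). At 12 months 6.3% of all genes were called higher and 8.87% lower (10.4 and 8.47% with the correction). Emilin2, a relative of Emilin1, rose by 2.86 ± 0.30 (adjusted p = 5.6e-07, and 1.37 ± 0.31 with the correction). Ltbp2, which binds microfibrils and fibulin-5, rose by 3.00 ± 0.40 (0.85 ± 0.19). Adamtsl4, which promotes fibrillin-1 assembly, rose by 2.31 ± 0.31 (adjusted p = 4.5e-06) and had 0.01 ± 0.11 with the correction (adjusted p = 0.96). Mfap5, a microfibril glycoprotein, fell in both fits (-1.50 ± 0.21 and -0.72 ± 0.18). At 12 months none of the 20 was called by edgeR at an adjusted p under 0.05, and 2 were lower with the correction, Adamts10 (-0.78 ± 0.15) and Bgn (-0.42 ± 0.13).

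Among genes that crosslink matrix or prepare the enzymes for it, 7 of 15 rose and 6 fell at 24 months, with a median of 0.03, and 5 rose and 5 fell with the correction. Of all genes 82.8% were called at 24 months, or 56.4% with the correction. Plod2, a lysyl hydroxylase of collagen, fell by 3.38 on the log2 scale (-3.38 ± 0.32, and -0.74 ± 0.18 with the correction). Tll1, a protease of the family that activates lysyl oxidase, had -3.79 ± 0.40 and -2.73 ± 0.41. Tgm2, a transglutaminase, rose by 2.11 ± 0.22 and had 0.25 ± 0.13 with the correction (adjusted p = 0.12), and Plod3 rose in both fits (2.57 ± 0.30 and 0.64 ± 0.14). At 12 months 3 of the 15 were lower and none higher without the correction. With it 1 was lower (Tll1) and 2 were higher, Slc31a1, a copper importer (0.56 ± 0.14, adjusted p = 0.014), and Plod1, a lysyl hydroxylase (0.65 ± 0.20, adjusted p = 0.039). Tll1 fell in both fits (-1.46 ± 0.30, adjusted p = 0.0089, and -1.05 ± 0.28, adjusted p = 0.022). Atp7a, the pump that loads copper into secreted enzymes such as lysyl oxidase, fell (-1.29 ± 0.37, adjusted p = 0.034) and was not called with the correction (-0.69 ± 0.32, adjusted p = 0.14). Fn1, fibronectin, fell (-0.98 ± 0.30, adjusted p = 0.042) and was not called with the correction (-0.47 ± 0.21, adjusted p = 0.12).

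Of 16 tested elastin-degrading proteases and their inhibitors, 8 rose and 5 fell at 24 months, with a median of 0.82, and 8 rose and 3 fell with the correction. The share of all genes called at 24 months was 82.8%, or 56.4% with the correction. Mmp9, a gelatinase that cuts elastin, rose in both fits (3.21 ± 0.39 and 1.98 ± 0.42), as did Slpi, an inhibitor of neutrophil elastase (2.47 ± 0.40 and 1.45 ± 0.34), and Timp2 (1.48 ± 0.21 and 0.34 ± 0.11). Timp3, a matrix-bound metalloprotease inhibitor, fell in both fits (-2.53 ± 0.27 and -0.55 ± 0.20). Timp4, of the same family, was the only gene of the 16 called at 12 months without the correction, where it rose by 1.09 ± 0.27 (adjusted p = 0.019). With the correction it rose by 1.04 ± 0.23 (adjusted p = 0.0081), and 3 more were called. Mmp12, the macrophage elastase, was higher (1.07 ± 0.28, adjusted p = 0.018), and the metalloproteases Mmp2 (-0.46 ± 0.13, adjusted p = 0.026) and Mmp14 (-0.50 ± 0.17, adjusted p = 0.047) were lower.

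Of 24 tested receptors and growth factors tied to elastic fibres, 9 rose and 13 fell at 24 months, with a median of -1.30, and 7 rose and 10 fell with the correction. The share of all genes called was again 82.8%, or 56.4% with the correction. Tgfbr3, betaglycan, fell in both fits (-3.12 ± 0.20 and -2.08 ± 0.17), and so did Itgav, the integrin alpha-V chain (-2.99 ± 0.27 and -0.68 ± 0.18). Itgb1 (-2.58 ± 0.21) and Tgfbr1 (-2.74 ± 0.26) fell without the correction and had -0.02 ± 0.17 and 0.15 ± 0.15 with it. At 12 months 3 of the 24 were lower, namely Tgfbr3 (-0.93 ± 0.18, adjusted p = 0.0079), Bmp2, a bone morphogenetic protein (-1.26 ± 0.31, adjusted p = 0.019), and Itga9, an integrin chain (-0.76 ± 0.19, adjusted p = 0.021). With the correction 2 were lower, Bmp2 (-1.22 ± 0.28, adjusted p = 0.011) and Bmp4, of the same family (-0.99 ± 0.23, adjusted p = 0.010).

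Markers of the cells that make elastic fibres, and of other cells a lung sample can hold, did not all move alike. Of all genes 38.2% were called higher and 44.6% lower at 24 months (30.1 and 26.3% with the correction). At 12 months 6.3% of all genes were called higher and 8.87% lower (10.4 and 8.47% with the correction). The labelled tissue held its defining markers, with reads for 7 of 7 type 2 epithelial genes in every library. The sum of 13 fibroblast markers was 3282 to 4367 CPM in the 9 younger mice and 4356 to 4646 CPM at 24 months, while 4 of the 13 rose and 9 fell by the test (2 and 5 with the correction). At 12 months 0 of these 13 were higher and 2 lower (0 and 3 with the correction). The sum of 10 smooth muscle and pericyte markers was 653 to 1126 CPM in the 9 younger mice and 2005, 2006 and 4318 CPM at 24 months, and 7 of the 10 rose and 2 fell (6 and 1 with the correction). At 12 months 2 of these 10 were higher and 1 lower (1 and 0 with the correction). The sum of 8 endothelial markers was 3119 to 3730 CPM in the 9 younger mice and 5583, 8342 and 11862 CPM at 24 months. Of these 8, 2 rose and 5 fell at 24 months (1 and 3 with the correction). At 12 months 0 were higher and 1 lower (1 and 1 with the correction). Of 7 tested skeletal and heart muscle markers 6 rose at 24 months (2 rose and 1 fell with the correction), and Actc1, Nppa and Mb were higher at 12 months (Actc1 and Nppa with the correction). Their sum was 243 to 608 CPM in the 9 younger mice and 567 to 1171 CPM at 24 months. Of 7 adipocyte markers 3 were higher at 24 months and 3 at 12 months (1 and 1 with the correction), with sums of 73.9 to 385 CPM in the younger mice and 210.4 to 344 CPM at 24 months. Mesothelial markers summed to 407 to 876 CPM in the 9 younger mice and to 1133 to 1526 CPM at 24 months. Of these 6 markers, 3 rose and 3 fell at 24 months (0 and 2 with the correction). Cartilage markers summed to 2.16 to 6.09 CPM in 11 libraries and 23.0 CPM in 24-month mouse 3. Of 4 tested, 2 rose and 0 fell at 24 months (0 and 1 with the correction). The part of these cells in the levels of the 10 genes was not tested.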

How the data were processed

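Poly(A) RNA from the lung of 12 mice was sequenced, 1 library per mouse. Per the labels, the submitters' processing notes name TopHat, STAR 2.5, HTSeq 0.6.1 and the mm10 build, with no roles. None of the sources used here says whether counting used the strand. The deposited table holds read counts per gene and FPKM from the authors (recomputed from counts and gene length, 235411 of 235411 values matched within 1e-06), with authors' mean FPKM per age. It also holds the authors' log2 fold changes and p-values for 3 comparisons with 3 months, and 6 columns of their scaled means per age, which were not used.

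Counts were tested in R 4.3.3 with edgeR 4.0.16 (TMM, filterByExpr, robust quasi-likelihood, Benjamini-Hochberg over 16042 genes) on all 12 libraries. CPM uses TMM-scaled totals, and log2 CPM a prior count of 2. For the correction, a joint smooth (mgcv 1.9.3) of log2 CPM deviations on GC content and log2 gene length entered each library's fit as an offset. GC content came from GENCODE M21 transcripts of mm10, for 97.8% of gene IDs. Alternatives used RLE size factors, DESeq2 1.42.0, limma 3.58.1 voom, other low-count filters, mouse number as a block, fewer libraries, each mouse left out, and, chosen after seeing the data, an additive correction and library totals without TMM. The edgeR fit and the correction were tested on simulated data first. An exact permutation test of 3 against 3 mice cannot go below p = 0.1, so none was used.

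All 10 genes were described. From each pathway list up to 4 called genes with the smallest p were named per comparison, and the 3 genes most like Eln and Lox. Adamts10, Bgn, Slc31a1, Plod1, Mmp12, Mmp2, Mmp14, Bmp4, Actc1, Nppa and Mb were named after their values were seen. The members and lists were chosen with earlier results of these data known.

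Same-numbered mice of different ages did not deviate together (18 pairs, median r = -0.05, 4 over 0.1), so mouse number was taken as a label.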

Additional observations from a re-analysis of the deposited data

How the results depend on the processing

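Calls at 24 months depended on the correction more than on any tool, filter or scaling tried. Against 3 months, GC correction alone called 4 of the 10 genes higher, and GC and length called 3, beside 30.1% of all genes. With the replicate block added 2 were called higher, and with the additive correction 4. Under these corrections, in the same order, Eln turned to -0.023, -0.10, -0.12 and -0.061. Mfap4 turned to -0.24, -0.27, -0.28 and -0.50, the last called lower (adjusted p = 0.031 by edgeR). Against 12 months, 1, 2, 2 and 1 genes were called higher under the same corrections, beside 21.4% of all genes with GC and length. Of all genes 82.8% were called against 3 months without the correction and 56.4% with it. Where no share of all genes stands beside a count in this section, the count is not set against one. Such a count shows how the calls depend on the setting and is not a result about these 10 genes. With each mouse left out, 6 to 7 genes were higher and 3 to 3 lower against 3 months (2 to 3 higher with the correction), and 5 to 7 higher and 2 to 2 lower against 12 months (1 to 2 higher with the correction). Over both fits Eln then ran from -0.27 to 2.03 (corrected, -0.27 to -0.0047), Mfap4 from -0.36 to 1.05 (corrected, -0.36 to -0.099), and Loxl2 at 24 against 12 months from -1.31 to 0.021 (uncorrected, -0.52 to 0.021). The cause was not tested.

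At 12 against 3 months, 2 genes were called lower by DESeq2, by limma voom, with GC correction and with the correction without the 24-month libraries. There were 3 lower and 2 higher with only the 6 mice of both ages (25.3% of all genes called, against 15.2%), 3 lower and 3 higher without the 24-month libraries (36.1%), and 1 higher with the correction, also with the block, without the 24-month libraries or in additive form. With a mouse left out, 0 to 3 were higher and 0 to 3 lower (0 to 1 and 1 to 2 with the correction). Eln turned to -0.23 with GC correction, -0.26 with GC and length, -0.28 with the block, -0.26 without the 24-month libraries, -0.21 in additive form and -0.037 with library totals. Fbn1 turned to 0.17, 0.17 with the block and 0.16 without the 24-month libraries. Mfap4 turned to -0.057, -0.068, -0.050 and -0.11, the last in additive form, and Fbln5 to -0.0026 with library totals. With a mouse left out, values over both fits ran from -0.35 to 0.14 for Eln, -0.64 to 0.34 for Fbn1, -0.013 to 0.47 for Fbln1, -0.0063 to 0.85 for Fbln5, -0.22 to 0.47 for Mfap4 and -0.047 to 0.63 for Emilin1.

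At 12 against 6 months 1 gene was higher (Loxl1) and 1 lower (Lox) without the 24-month libraries (20% of all genes, against 2.03%), and 1 was lower with GC correction and with the correction without those libraries. With a mouse left out, 0 to 3 were higher and 0 to 1 lower (0 to 1 and 0 to 1 with the correction). Among 3, 6 and 12 months, 0 genes were called with the replicate block, 4 without the 24-month libraries (26.5% of all genes, against 6.43%), 0 with library totals, and 0 to 6 with a mouse left out (1 to 2 with the correction). Mouse numbers did not pair the mice. With the replicate block and no correction, 7 genes were higher and 3 lower at 24 against 3 months, and 0 and 1 at 12 against 3 months.

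Depth limited Lox, Fbn1 and Loxl2 at 24 months most, with as few as 23, 98 and 52 reads in a library. DESeq2 and the fit on 6 mice were not run for the joint test of 3 ages.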
